A study of Mus musculus with 8 samples.

Results

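The subject is a set of 10 genes that encode cytokine receptor chains found on B cells: Il4ra, Il21r, Il2rg, Il10ra, Il10rb, Il6ra, Ifnar1, Ifnar2, Ifngr1 and Ifngr2. They were taken by symbol from the deposited table of normalized counts, which holds 23302 entries. All 10 had an entry, and all 10 passed the filter on low values that left 13011 genes to test. The RNA came from splenic naive B cells of C57BL/6 mice in a study of pancreatic cancer, with 8 libraries in 4 groups of 2. These were tumor-bearing mice whose B cells lack Ebi3 (EBi3KO tumor), mice of that genotype without a tumor (EBi3KO nontumor), wild-type mice with a tumor (WT tumor) and wild-type mice without one (WT nontumor). Libraries whose tumor status the labels give as WT were read as coming from tumor-free mice. The labels used here give no age, tumor model or Cre driver, and do not tie libraries to single animals. P-values therefore measure the spread between these libraries, which may be technical.

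Cytokine receptors of this family work in pairs, with a chain that gives specificity for the ligand and a second chain that completes the signalling complex. The signalling chains carry Janus kinases, which phosphorylate each other and then the STAT transcription factors. In the IL-6 receptor the kinases sit on gp130 and not on the chain encoded by Il6ra. The IL-4 and IL-21 receptors share the common gamma chain encoded by Il2rg, and in B cells IL-4 supports survival, class II expression and switching to IgG1 and IgE, while IL-21 acts on germinal center and plasma cell differentiation. IL-10 signals through Il10ra and Il10rb, IL-6 through Il6ra and gp130, type I interferons through Ifnar1 and Ifnar2, and interferon gamma through Ifngr1 and Ifngr2.

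Each library held between 21291892 and 28297319 recovered reads. Ebi3, the targeted gene, had 8.7 and 11 normalized counts in EBi3KO tumor, 12.8 and 11.5 in EBi3KO nontumor, 200.9 and 163.6 in WT tumor, and 8.9 and 11 in WT nontumor. It was low in both nontumor groups, where it does not check the genotype label. The WT tumor libraries alone lacked reads of the Y-linked Eif2s3y, Kdm5d and Uty, and alone carry the prefix IV in their titles, against OT elsewhere. Sex and title prefix cannot be told apart from any contrast that uses these libraries, which are the tumor effect in WT, the genotype contrast among tumor mice and the difference of the tumor effects. The EBi3KO tumor libraries lay closest together, with a mean chi-square per gene of 2.01, against 22.1 in EBi3KO nontumor, 13.5 in WT tumor and 16.7 in WT nontumor. The median per gene was 0.566, against 2.47 in EBi3KO nontumor, 1.70 in WT tumor and 3.02 in WT nontumor. They were counted as the 2 libraries that the labels give, which does not show that they come from separate animals, and counts with both averaged as 1 sample are given beside the results they change.

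B cell markers made up 0.923 to 0.927% of the normalized total in EBi3KO tumor, 0.790 to 0.836% in EBi3KO nontumor, 1.04 to 1.06% in WT tumor and 0.722 to 0.744% in WT nontumor. Ighd and Ighm, which are among the defining markers, had no entry in the table. Monocyte and macrophage markers, all 10 of which were detected in every group, summed to 0.217 to 0.219%, 0.326 to 0.411%, 0.0403 to 0.0460% and 0.353 to 0.379% in the same order of groups. Erythroid markers, with all 7 detected, summed to 0.105% in both EBi3KO tumor libraries, 0.536 to 0.705% in EBi3KO nontumor, 0.0409 to 0.0505% in WT tumor and 0.330 to 0.334% in WT nontumor. Plasma cell markers summed to 0.230% in both EBi3KO tumor libraries, 0.111 to 0.122% in EBi3KO nontumor, 0.0455 to 0.0526% in WT tumor and 0.141 to 0.154% in WT nontumor, and T cell, NK cell, dendritic cell, granulocyte and platelet markers each to at most 0.0198% in any library. The monocyte, macrophage and erythroid shares moved with the tumor effects in both genotypes, and their part in the results below was not tested. In bulk RNA, fewer cells of a type and less RNA per cell cannot be told apart.

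**Figure D1:**
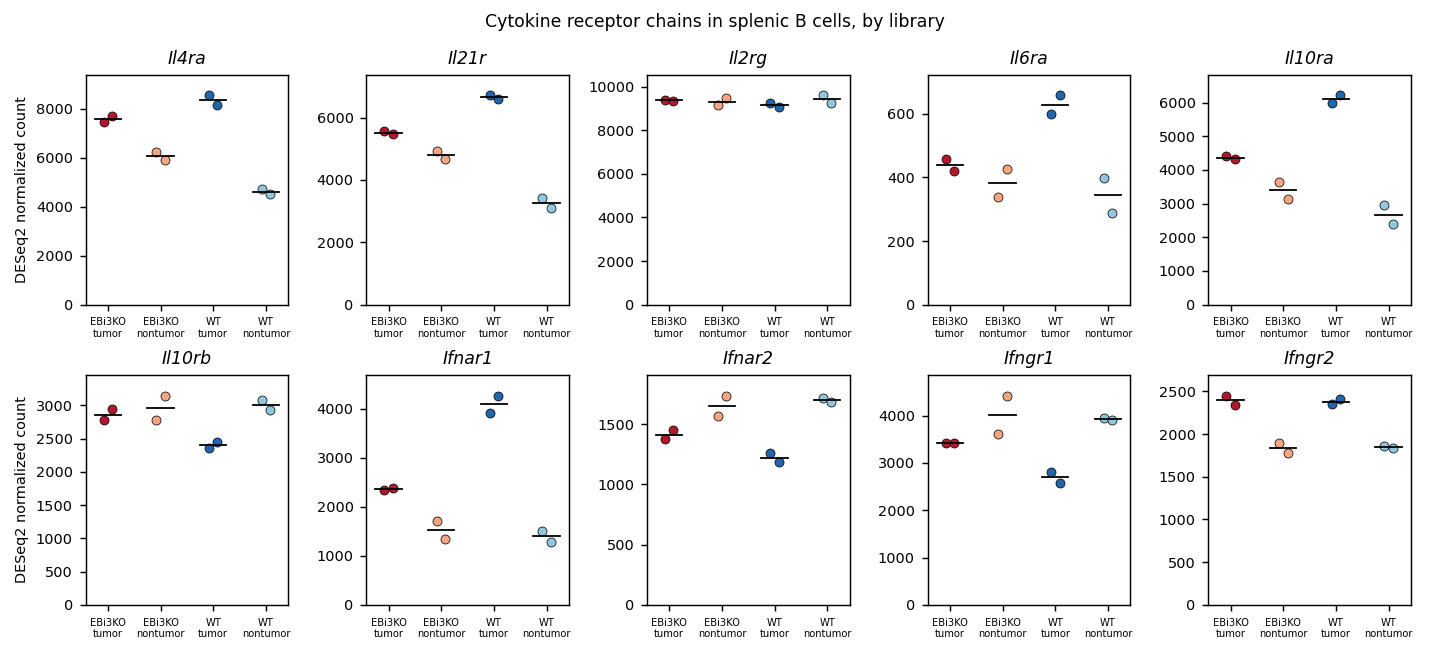
Normalized count (y axis, from 0) of each receptor chain in each library, with 1 point per library and a line at the mean of the 2 libraries of a group. In these deposited values the WT tumor libraries lie above the other 6 for Il4ra, Il21r, Il6ra, Il10ra and Ifnar1, and below them for Il10rb, Ifnar2 and Ifngr1, while Il2rg is level across the groups.

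To compare levels between genes, normalized counts were divided by the length of the longest coding transcript in kb. On this scale the common gamma chain Il2rg was the most abundant chain in every group, with group means of 5615 ± 29.2 per kb in EBi3KO tumor, 5582 ± 126 in EBi3KO nontumor, 5499 ± 77.0 in WT tumor and 5648 ± 144 in WT nontumor (SD, n = 2 each). Il6ra was the least abundant, at 50.7 ± 3.16, 44.3 ± 7.41, 72.8 ± 4.81 and 39.9 ± 8.97 per kb in the same groups, and its reads ranged from 211 to 837 per library. In the deposited values the level of Il2rg varied least across the group means, with a coefficient of variation of 1.15%, and that of Ifnar1 varied most, at 53.0%.

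The order of the other chains in the deposited values differed between groups. How counts depend on transcript length, given further on, also differed between groups, and its part in this order was not tested. In EBi3KO tumor it was Il21r at 2206 ± 27.99 per kb, Ifngr1 at 1618 ± 2.20, Il10rb at 1544 ± 64.3, Il4ra at 1444 ± 31.3, Il10ra at 1249 ± 23.4, Ifngr2 at 645 ± 21.2, Ifnar1 at 605 ± 9.95 and Ifnar2 at 464 ± 18.2. In EBi3KO nontumor it was Il21r at 1917 ± 70.9, Ifngr1 at 1901 ± 272, Il10rb at 1599 ± 142, Il4ra at 1159 ± 43.6, Il10ra at 969 ± 98.0, Ifnar2 at 541 ± 39.9, Ifngr2 at 495 ± 21.6 and Ifnar1 at 391 ± 66.9. Both EBi3KO groups thus shared the order of the first 5 and differed in that of the interferon chains below them. In WT tumor, Il21r was second at 2659 ± 35.2 and Il10ra next at 1745 ± 43.8, ahead of Il4ra at 1591 ± 50.5, Il10rb at 1301 ± 33.5, Ifngr1 at 1276 ± 80.3, Ifnar1 at 1048 ± 62.1, Ifngr2 at 642 ± 9.67 and Ifnar2 at 401 ± 16.7. In WT nontumor, Ifngr1 stood second at 1863 ± 15.5 per kb, followed by Il10rb at 1626 ± 55.1, Il21r at 1306 ± 85.9, Il4ra at 877 ± 26.9, Il10ra at 765 ± 109, Ifnar2 at 559 ± 7.49, Ifngr2 at 498 ± 6.35 and Ifnar1 at 357 ± 42.5. Il10rb and Ifngr1 in WT tumor, and Il21r and Ifngr1 in EBi3KO nontumor, were neighbours that differed by less than their SD. The 3 chains at the bottom above Il6ra thus stood in opposite order in the WT groups, with Ifnar1 above Ifngr2 and Ifnar2 in tumor mice and below both in nontumor mice.

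The tumor effect in WT asks how these chains differ in B cells of tumor-bearing against tumor-free WT mice. In WT tumor, 6 of the 10 chains were higher, 3 were lower and Il2rg did not pass the threshold, with 79.8% of all tested genes called in that comparison. By direction, 39.6% of all tested genes were higher and 40.1% lower. The libraries of the 2 groups did not overlap for the 9 chains called, upward in 6 (45.8% of all tested genes) and downward in 3 (45.6%). The chains that bind the ligand of the IL-4, IL-21, IL-10 and IL-6 receptors all rose, as did Ifnar1 and Ifngr2, while Il10rb, Ifnar2 and Ifngr1 fell. These directions hold for the values as deposited. With a correction of each library for transcript length and GC content, described further on, 5 chains were higher and 2 lower, Il6ra and Il10rb turned sign and missed the threshold, Ifngr2 missed it, and Il2rg passed. The median log2 difference of the 10 chains was 0.61 in the deposited values, against 0.01 for all tested genes. After the correction it was 0.20, against -0.003 for all tested genes. In the corrected fit 4569 of 12878 tested genes were higher in WT tumor and 4885 lower. This is the background for every WT count given after the correction. Within EBi3KO the same contrast gave 4 higher and 0 lower chains, with 32.6% of all tested genes called, 14.1% higher and 18.5% lower. Those 4 were Il4ra, Il10ra, Ifnar1 and Ifngr2, and the median of the 10 chains was 0.20, against -0.01 for all tested genes. The groups did not overlap for 5 chains upward (36.6% of all tested genes) and 2 downward (39.0%). Without either EBi3KO tumor library, or with both averaged as 1 sample, 0 of the 10 passed in EBi3KO by limma, and without EBi3KO nontumor replicate 2 the number was 2. In the fit of all 8 libraries 7 of the 10 were below an unadjusted p of 0.05 in this contrast. Such values were common over all tested genes. Ifngr1, with the largest p of the 7 (limma unadjusted p = 0.0490), ranked 6114 of 13011 by p-value. The count models of edgeR and DESeq2 each called 4 of the 10.

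**Figure D2:**
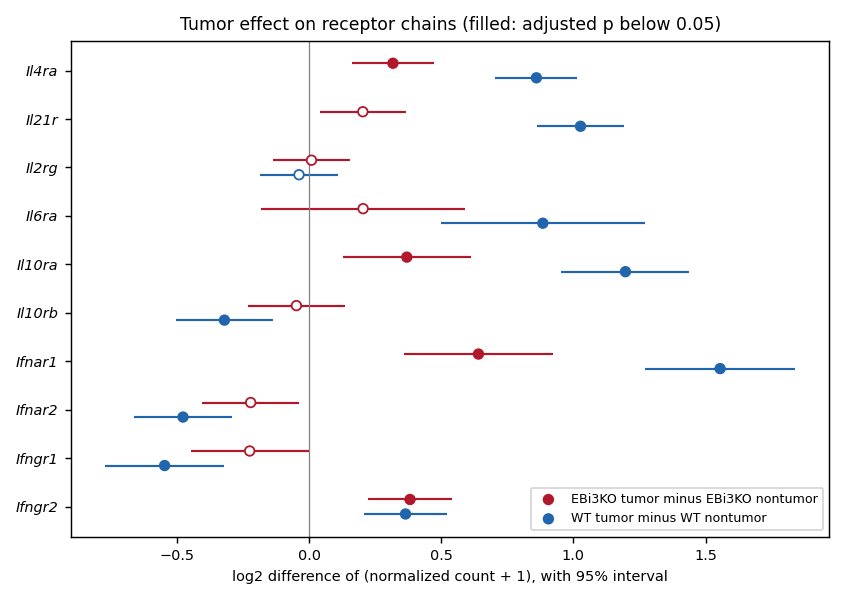
Log2 difference between tumor and nontumor libraries (x axis, on the log2 scale of normalized count + 1, bars for the 95% interval) for each chain, in EBi3KO (red, upper mark of each pair) and in WT (blue, lower mark). Ifnar1 shows the largest difference in both genotypes, at 0.64 in EBi3KO and 1.56 in WT, and Ifngr2 lies at nearly the same place in both, all in the deposited values.

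Il4ra encodes the chain that binds IL-4 and, with Il13ra1, also serves the IL-13 receptor. It had 7471 and 7704 normalized counts in EBi3KO tumor, 6254 and 5930 in EBi3KO nontumor, 8552 and 8176 in WT tumor, and 4707 and 4508 in WT nontumor. No 2 groups overlapped, and the order of the groups was WT tumor, EBi3KO tumor, EBi3KO nontumor, WT nontumor. Its log2 difference was 0.32 in EBi3KO (SE 0.0682, limma adjusted p = 0.0124) and 0.86 in WT (SE 0.0682, adjusted p = 6.38e-06). It was 0.17 in EBi3KO and 0.27 in WT after the correction for length and GC.

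Il21r, the chain that binds IL-21, followed the same order of groups. It had 5562 and 5463 normalized counts in EBi3KO tumor, 4915 and 4665 in EBi3KO nontumor, 6708 and 6584 in WT tumor, and 3416 and 3113 in WT nontumor. The difference in EBi3KO was 0.20 (SE 0.0717) and missed the threshold at an adjusted p of 0.0579, although its groups did not overlap. The difference in WT was 1.03 (SE 0.0717, adjusted p = 3.51e-06).

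Il2rg, the common gamma chain that Il4ra and Il21r both use, lies on the minus strand of the X chromosome, at chrX:101264378-101268255 (GRCm38). Its counts were 9412 and 9343 in EBi3KO tumor, 9174 and 9470 in EBi3KO nontumor, 9275 and 9093 in WT tumor, and 9603 and 9262 in WT nontumor. The tumor and nontumor libraries overlapped in both genotypes. The difference was 0.01 in EBi3KO, with a 95% interval of -0.14 to 0.16, and -0.04 in WT, with an interval of -0.19 to 0.11. After the correction for length and GC the WT difference was 0.51 (adjusted p = 8.95e-05).

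The ratio of the ligand-binding chains to Il2rg within a library therefore followed Il4ra and Il21r. These ratios are of counts not divided by length, so only their change between groups is read. Il4ra to Il2rg averaged 0.809 ± 0.0218 in EBi3KO tumor, 0.654 ± 0.0393 in EBi3KO nontumor, 0.911 ± 0.0162 in WT tumor and 0.488 ± 0.00251 in WT nontumor (SD, n = 2 each). Il21r to Il2rg averaged 0.588 ± 0.00440, 0.514 ± 0.0306, 0.724 ± 0.000555 and 0.346 ± 0.0139 in the same groups. Both ratios were higher in every tumor library than in every nontumor library of the same genotype, before any correction for length and GC. With that correction the WT tumor effect on Il4ra to Il2rg turned sign. The EBi3KO effect on that ratio was then 0.05 on the log2 scale, against 0.31 before it.

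Il10ra, at chr9:45253837-45269149 on the minus strand, encodes the chain that binds IL-10. It had 4426 and 4310 normalized counts in EBi3KO tumor, 3631 and 3147 in EBi3KO nontumor, 5996 and 6213 in WT tumor, and 2945 and 2406 in WT nontumor. The groups did not overlap, and WT tumor was the highest. The log2 difference was 0.37 in EBi3KO (SE 0.106, adjusted p = 0.0314) and 1.2 in WT (SE 0.106, adjusted p = 1.15e-05).

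Il10rb, the second chain of the IL-10 receptor, is also part of the IL-22, IL-26 and lambda interferon receptors in humans. Its counts were 2773 and 2941 in EBi3KO tumor, 2774 and 3144 in EBi3KO nontumor, 2364 and 2452 in WT tumor, and 3080 and 2936 in WT nontumor. Both WT tumor libraries lay below the other 6, whose ranges overlapped. The difference was -0.05 in EBi3KO (95% interval -0.23 to 0.14) and -0.32 in WT (SE 0.0810, adjusted p = 0.00543). The WT difference turned to 0.13 after the correction for length and GC (adjusted p = 0.139). The ratio of Il10ra to Il10rb was 1.53 ± 0.0924 in EBi3KO tumor, 1.15 ± 0.218 in EBi3KO nontumor, 2.54 ± 0.00161 in WT tumor and 0.888 ± 0.0965 in WT nontumor.

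Il6ra, at chr3:89864059-89913196 on the minus strand, binds IL-6 and then joins gp130. It had 458 and 419 normalized counts in EBi3KO tumor, 337 and 428 in EBi3KO nontumor, 600 and 658 in WT tumor, and 399 and 289 in WT nontumor. The WT tumor libraries alone stood above every other library. The difference was 0.20 in EBi3KO, with a 95% interval of -0.18 to 0.59, and 0.88 in WT (SE 0.170, adjusted p = 0.00115). Corrected for length and GC, the WT difference turned to -0.37 (adjusted p = 0.0615). Il6st, which encodes gp130 and is named here after its values were seen, differed by 0.12 in EBi3KO (adjusted p = 0.485) and rose by 0.78 in WT (adjusted p = 0.000551). These Il6st differences are without that correction.

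The interferon receptor chains lie close together on mouse chromosome 16, with the exception of Ifngr1 at chr10:19591949-19610229. In the GRCm38 (mm10) annotation the plus strand holds Ifnar2 at chr16:91372783-91405589, Il10rb at chr16:91406164-91425834, Ifnar1 at chr16:91485238-91507441 and Ifngr2 at chr16:91547072-91565623, a span of 193 kb. The read-through model Gm21970 overlaps Ifnar2 and Il10rb, had no entry in the table, and its effect on the counts of these genes was not tested. In WT tumor the neighbours went opposite ways, with Ifnar2 and Il10rb lower and Ifnar1 and Ifngr2 higher.

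To show what these genes hold just before their starts, the 250 bases upstream of the RefSeq start (GRCm38.p6, given 5′ to 3′ on the gene's strand, which is plus for all 4) are printed for the interferon receptor chains. Capitals mark matches on either strand to the gamma-activated site TTCNNNGAA, the CCAAT box CCAAT and the GC box GGGCGG. The windows are chr16:91484965-91485214 for Ifnar1, chr16:91372533-91372782 for Ifnar2, chr10:19591699-19591948 for Ifngr1 and chr16:91546809-91547058 for Ifngr2.
Ifnar1: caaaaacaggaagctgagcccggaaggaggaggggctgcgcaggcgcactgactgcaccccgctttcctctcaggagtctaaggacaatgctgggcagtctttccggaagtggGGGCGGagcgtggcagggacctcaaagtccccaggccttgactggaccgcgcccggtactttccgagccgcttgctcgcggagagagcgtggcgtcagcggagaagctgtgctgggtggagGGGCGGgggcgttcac
Ifnar2: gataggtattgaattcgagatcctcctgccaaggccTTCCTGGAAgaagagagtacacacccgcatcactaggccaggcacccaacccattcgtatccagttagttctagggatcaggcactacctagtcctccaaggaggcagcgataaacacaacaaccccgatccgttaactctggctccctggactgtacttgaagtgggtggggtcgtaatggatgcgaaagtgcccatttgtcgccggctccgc
Ifngr1: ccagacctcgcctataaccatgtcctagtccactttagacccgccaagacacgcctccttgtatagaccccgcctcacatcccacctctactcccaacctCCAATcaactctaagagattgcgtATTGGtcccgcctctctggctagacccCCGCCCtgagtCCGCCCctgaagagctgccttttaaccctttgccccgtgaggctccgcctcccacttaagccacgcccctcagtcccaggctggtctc
Ifngr2: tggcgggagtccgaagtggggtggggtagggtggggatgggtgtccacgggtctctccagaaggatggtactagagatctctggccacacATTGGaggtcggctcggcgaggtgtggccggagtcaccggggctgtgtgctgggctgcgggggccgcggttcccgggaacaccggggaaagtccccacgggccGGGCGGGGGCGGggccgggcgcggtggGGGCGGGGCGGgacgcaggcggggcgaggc

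The Ifnar2 window held 1 match to the gamma-activated site, which 7.02% of all 32851 RefSeq promoter windows of this length hold, and none of the other marked motifs. Ifnar1 had 2 GC boxes, Ifngr1 had 2 CCAAT boxes and 2 GC boxes, and Ifngr2 had 1 CCAAT box and 4 GC boxes, some of which adjoin or overlap. A CCAAT box was in 33.8% and a GC box in 32.7% of all windows. TATAAA, in 12.4% of all windows, was in none of the 4. CCGGAA, the core of ETS factor sites, was found in 12.0% of all windows and left in lower case. The Ifnar1 window held 3 matches to it over both strands, 2 of which overlap in TTCCGGAA. The windows held 19, 11, 11 and 25 CpG dinucleotides for Ifnar1, Ifnar2, Ifngr1 and Ifngr2, against a median of 6 over all windows. Of the 10 chains, 8 had a window in the table, and Il10ra and Il10rb are named only.

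Ifnar1 encodes the low-affinity chain of the type I interferon receptor, which carries the kinase Tyk2. It had 2336 and 2391 normalized counts in EBi3KO tumor, 1712 and 1342 in EBi3KO nontumor, 3926 and 4269 in WT tumor, and 1515 and 1280 in WT nontumor. The nontumor groups overlapped, the EBi3KO tumor libraries lay above both, and the WT tumor libraries were highest. The log2 difference was 0.64 in EBi3KO (SE 0.124, adjusted p = 0.00850) and 1.56 in WT (SE 0.124, adjusted p = 6.70e-06).

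Ifnar2, the high-affinity chain of the same receptor, carries Jak1. Its counts were 1374 and 1453 in EBi3KO tumor, 1564 and 1736 in EBi3KO nontumor, 1259 and 1187 in WT tumor, and 1718 and 1686 in WT nontumor. The order of the group means was the reverse of that of Ifnar1. The difference in EBi3KO was -0.22 (SE 0.0806, adjusted p = 0.0634) and missed the threshold, and that in WT was -0.48 (SE 0.0806, adjusted p = 0.000535). The ratio of Ifnar1 to Ifnar2 was 1.70 and 1.65 in EBi3KO tumor, 1.09 and 0.773 in EBi3KO nontumor, 3.12 and 3.60 in WT tumor, and 0.882 and 0.759 in WT nontumor. Its mean was 1.79 times as high with a tumor in EBi3KO and 4.09 times as high in WT.

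Ifngr1, the chain that binds interferon gamma and carries Jak1, had 3414 and 3421 normalized counts in EBi3KO tumor, 3609 and 4421 in EBi3KO nontumor, 2815 and 2575 in WT tumor, and 3957 and 3911 in WT nontumor. Both WT tumor libraries lay below the other 6. The difference was -0.23 in EBi3KO (SE 0.0983, adjusted p = 0.104), short of the threshold, and -0.55 in WT (SE 0.0983, adjusted p = 0.00078), which became -0.23 with the correction for length and GC.

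Ifngr2, the chain of that receptor that carries Jak2, had 2449 and 2337 normalized counts in EBi3KO tumor, 1894 and 1780 in EBi3KO nontumor, 2354 and 2405 in WT tumor, and 1865 and 1831 in WT nontumor. The tumor libraries of both genotypes lay above all nontumor libraries. It rose by 0.38 in EBi3KO (SE 0.0694, adjusted p = 0.00655) and by 0.36 in WT (SE 0.0694, adjusted p = 0.0011). With the correction for length and GC the WT difference was 0.14 and missed the threshold (adjusted p = 0.0568). The ratio of Ifngr2 to Ifngr1 was 0.700 ± 0.0240 in EBi3KO tumor, 0.464 ± 0.0862 in EBi3KO nontumor, 0.885 ± 0.0690 in WT tumor and 0.470 ± 0.00207 in WT nontumor.

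**Figure D3:**
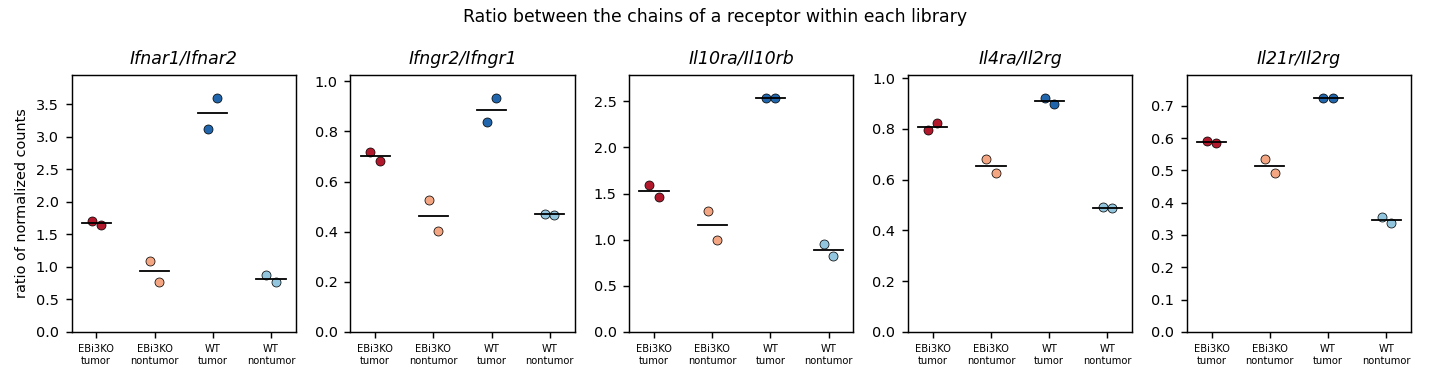
Ratio between the counts of paired receptor chains in each library (y axis, from 0, counts not divided by length), with 1 point per library and a line at the group mean. Ifnar1/Ifnar2 spans the widest range, from 0.759 in a WT nontumor library to 3.60 in a WT tumor library. Every ratio drawn is higher in tumor than in nontumor libraries of the same genotype. With the correction for length and GC the tumor effect on Il4ra to Il2rg turned in WT, and in EBi3KO was 0.05 on the log2 scale, against 0.31 before it.

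The genotype effect in nontumor mice asks what loss of Ebi3 from B cells does without a tumor. None of the 10 chains passed the threshold, with 0% of all tested genes called by limma and 0 of 13011 by edgeR, while 1049 genes, or 8.06%, had an unadjusted p below 0.05. DESeq2 called 21 of 10993 genes with an adjusted p, or 0.191%, and Il4ra and Il21r were among them. Of the 10 chains 3 had an unadjusted p below 0.05 in limma, and these were Il4ra, Il21r and Il10ra, all with EBi3KO above WT and no overlap. Such a gap upward was seen in 15.8% of all tested genes. The log2 difference was 0.40 for Il4ra (SE 0.0682, adjusted p = 0.36), 0.55 for Il21r (SE 0.0717, adjusted p = 0.184) and 0.34 for Il10ra (SE 0.106, adjusted p = 0.604). By p-value Il21r ranked 2 and Il4ra 9 of the 13011 genes. The remaining 7 chains lay between -0.05 and 0.16.

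Il4ra and Il21r are neighbours on the plus strand of mouse chromosome 7, at chr7:125552120-125579474 and chr7:125603429-125633570. Of the 8 tested genes that start within 500 kb of the Il21r start, themselves included, 3 had an unadjusted p below 0.05, against 8.06% of all tested genes, and EBi3KO was above WT in all 3. These were the 2 receptor chains and Gtf3c1, the next gene after Il21r, which differed by 0.34, while Nsmce1, on the other side of Il4ra, differed by -0.01. This window was chosen after the values were seen, the labels used here do not name the Cre driver, and the part of the targeted locus or of the genetic background was not tested.

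**Figure D4:**
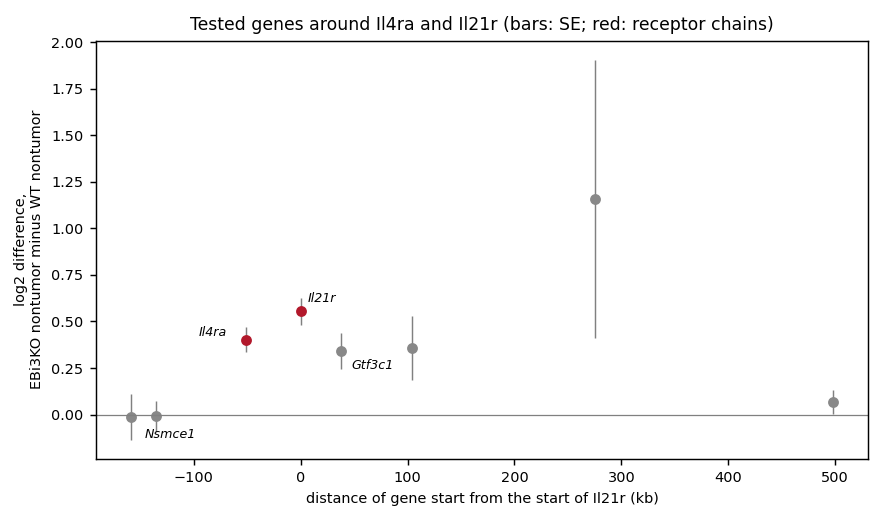
Log2 difference between EBi3KO nontumor and WT nontumor libraries (y axis, bars for the SE) for the 8 tested genes around Il21r, by distance of the gene start from that of Il21r in kb (x axis). Il4ra and Il21r (red) stand at 0.40 and 0.55 and Gtf3c1 at 0.34, Nsmce1 on the left lies at -0.01, and the highest point, Gsg1l at 1.16, has an SE of 0.75.

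With a tumor present, EBi3KO B cells had lower Il21r, Il10ra, Il6ra and Ifnar1 and higher Il10rb, Ifnar2 and Ifngr1 than WT B cells. That is 4 chains lower and 3 higher, with 60.5% of all tested genes called in that comparison, 28.6% lower and 31.9% higher. The groups did not overlap for 4 chains upward (44.2% of all tested genes) and 5 downward (44.7%). Ifnar1 differed most, at -0.79 (SE 0.124, adjusted p = 0.000735), followed by Il6ra at -0.52 (SE 0.170, adjusted p = 0.0261) and Il10ra at -0.48 (SE 0.106, adjusted p = 0.00428). Il21r fell by 0.27 (adjusted p = 0.0106), and Il4ra stood at -0.14 (adjusted p = 0.104). Ifngr1 was higher by 0.34 (adjusted p = 0.0147), Il10rb by 0.25 (adjusted p = 0.0269) and Ifnar2 by 0.21 (adjusted p = 0.0497). Il2rg, at 0.03, and Ifngr2, at 0.01, had intervals of -0.12 to 0.18 and -0.15 to 0.17. The number of chains called fell when any of the EBi3KO tumor or WT tumor libraries was left out. The number called over all tested genes fell in each of these fits as well. With the correction for length and GC described further on, Il6ra turned to 0.30 and Il10rb to -0.05 and Ifngr1 stood at 0.14, all short of the threshold. Il4ra turned to 0.19, Il2rg to -0.34 and Ifngr2 stood at 0.18, and these 3 passed.

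The interaction sets the tumor effect in EBi3KO against that in WT, and shares the WT tumor libraries with the contrasts above. For 5 chains the tumor effect in EBi3KO was lower than that in WT and for 0 it was higher, with 52.9% of all tested genes called in that comparison, 25.4% lower and 27.5% higher. These were Ifnar1, with effects of 0.64 in EBi3KO and 1.56 in WT (difference -0.91, SE 0.176, adjusted p = 0.00296), Il10ra, with 0.37 and 1.2 (difference -0.83, SE 0.150, adjusted p = 0.00232), and Il21r, with 0.20 and 1.03 (difference -0.82, SE 0.101, adjusted p = 0.000464). Il4ra differed by -0.54 (SE 0.0964, adjusted p = 0.00207). Il6ra differed by -0.68 (SE 0.240, adjusted p = 0.0405), and was past the threshold in 8 of 19 other settings. Il10rb, Ifnar2 and Ifngr1, whose effects ran the other way, differed by 0.27, 0.26 and 0.32 and missed the threshold (adjusted p = 0.0738, 0.0878 and 0.0801). For Ifngr2 the difference was 0.02, with a 95% interval of -0.21 to 0.24. With the correction for length and GC, Il4ra stood at -0.10, Il6ra turned to 0.29 and Il10rb turned to -0.09, and all missed the threshold, while Il2rg, at 0.05 before it, turned to -0.39 and passed (adjusted p = 0.00892).

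Over all 8 libraries, 5 of the 10 chains had both WT tumor libraries above the other 6, where 38.9% of all tested genes did, and 3 had both below, where 38.4% did. With reads scaled to the library total (RPM) the median of all tested genes was 0.46 higher in WT tumor than in WT nontumor on the log2 scale, and the WT differences of Il10rb, Ifnar2 and Ifngr1 became 0.13, -0.03 and -0.10, which lie below that median. Il2rg stood at 0.41 on that scale, close to the median of all genes.

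The libraries also differed in how counts depended on transcript length. Across the 12878 tested genes with a length, the Spearman correlation between a gene's length and its log2 deviation from its mean over libraries was -0.12 and -0.13 in EBi3KO tumor, -0.42 and -0.36 in EBi3KO nontumor, 0.47 and 0.48 in WT tumor, and -0.38 and -0.42 in WT nontumor. Genes share each library, so these are descriptions of the libraries. Transcript lengths of the 10 chains run from 1.67 kb in Il2rg to 8.64 kb in Il6ra. After a correction that takes each library's dependence on length and GC content out of the log2 values, the WT tumor effect was 1.28 for Ifnar1, 1.26 for Il21r, 1.08 for Il10ra and -0.49 for Ifnar2, all past the threshold. Il4ra, at 5.26 kb, stood at 0.27 in place of 0.86 and Ifngr1 at -0.23 in place of -0.55, and both passed. Ifngr2 missed the threshold at 0.14, and Il10rb and Il6ra turned to 0.13 and -0.37 and missed it. Il2rg then stood at 0.51 and passed. In EBi3KO the same correction left Ifnar1 at 0.59, Il10ra at 0.34, Ifngr2 at 0.34 and Il4ra at 0.17, all past the threshold, and brought Il21r, at 0.24, and Ifnar2, at -0.21, past it.

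**Figure D5:**
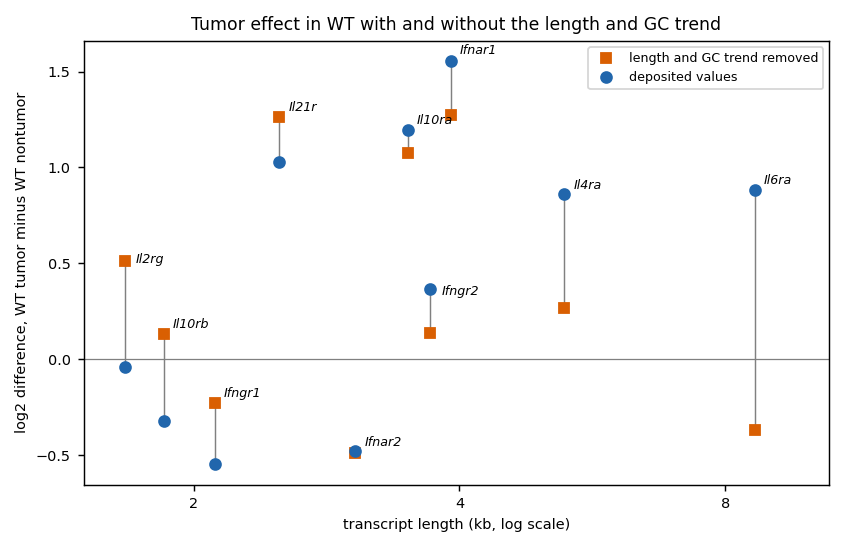
Log2 difference between WT tumor and WT nontumor libraries (y axis) against transcript length in kb (x axis, log scale) for each chain, after the correction for length and GC (orange squares) and as deposited (blue circles). Il6ra, Il4ra and Il2rg move most, to -0.37, 0.27 and 0.51, while Ifnar1 and Ifnar2 stand at 1.28 and -0.49 after the correction.

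The ratios within a receptor changed with this correction as well. On the log2 scale the tumor effect on the ratio of Ifnar1 to Ifnar2 was 1.76 after it and 2.03 before it in WT. That of Il10ra to Il10rb was 0.94 after it and 1.52 before it, and that of Ifngr2 to Ifngr1 was 0.36 and 0.91. The ratio of Il21r to Il2rg stood at 0.75 and 1.07, while that of Il4ra to Il2rg turned to -0.25, against 0.90 before it. In EBi3KO the tumor effect on Ifnar1 to Ifnar2 was 0.81 after it and 0.86 before it. In the same order it was 0.30 and 0.42 for Il10ra to Il10rb and 0.50 and 0.61 for Ifngr2 to Ifngr1. For Il21r to Il2rg it was 0.11 and 0.19, and for Il4ra to Il2rg 0.05 and 0.31.

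The genes most like 9 of the chains over the 8 libraries were named by the Pearson correlation of log2 values, which is given as a description because the libraries fall into groups. Cyth1 was closest to Il4ra (r = 0.997). Cnot3 was closest to Il10ra (0.998), Atg3 to Il10rb (0.980), Hmgn5 to Il6ra (0.992), Prdm2 to Ifnar1 (0.999), Aifm2 to Ifnar2 (0.998), Clec7a to Ifngr1 (0.995) and Zfp36l2 to Ifngr2 (0.985). For Il2rg the closest was Rnls at 0.964. The likeness was widely shared for some chains, with 2049 genes above 0.95 for Ifnar1 and 1695 for Il10ra, against 2 for Il2rg and 114 for Il21r. Among the chains themselves Il4ra and Il21r had r = 0.985 and Ifnar1 and Ifnar2 had r = -0.979.

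Other chains of cytokine receptors went both ways. Of 39 listed, 35 were tested, and in EBi3KO 5 were higher and 8 lower with a tumor, while in WT 13 were higher and 15 lower, with medians of -0.03 and 0.13. All but 22 were called in EBi3KO and all but 7 in WT, which is close to the shares over all tested genes, 32.6% and 79.8%. In WT 8 were higher and 16 lower after the correction for length and GC. Among them Lifr, the receptor of leukemia inhibitory factor, rose by 1.44 in EBi3KO and 2.15 in WT. Epor, the erythropoietin receptor and also an erythroid marker, fell by 2.14 in EBi3KO and fell by 4.64 in WT. Il13ra1, the other partner of Il4ra, fell by 0.58 in EBi3KO (adjusted p = 0.023) and fell by 2.31 in WT.

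Of 12 kinases and transcription factors of the JAK and STAT families, with Irf9, 2 were higher and 0 lower in EBi3KO tumor, and 10 were higher and 0 lower in WT tumor, at medians of 0.20 and 0.39. Over all tested genes 14.1% were higher in EBi3KO and 39.6% in WT, and 79.8% were called in WT in either direction, so the number called in WT is near the background. The pair in EBi3KO was Stat3, at 0.32, and Stat2, which is part of the complex activated by type I interferon, at 0.41. In WT, Stat2 rose by 1.30, Jak1 by 0.76, Tyk2 by 0.70 and Irf9 by 0.48. After the correction for length and GC the WT counts were 6 higher and 3 lower, at a median of 0.16. Among 17 feedback inhibitors 4 were higher and 0 lower in EBi3KO and 10 higher and 1 lower in WT, with the same shares of 32.6% and 79.8% called over all tested genes. Socs3, which restrains STAT3 signalling, rose by 0.80 in EBi3KO (adjusted p = 0.00631) and stood at -0.29 in WT (adjusted p = 0.0946). With the correction for length and GC the WT counts of this list were 6 higher and 4 lower, at a median of -0.02.

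Of genes known to respond to IL-4 through STAT6, 8 were tested. Among them 1 was higher and 2 lower in EBi3KO tumor, and 1 was higher and 4 lower in WT tumor, at medians of -0.11 and -0.65, against 32.6% and 79.8% of all tested genes called in either direction. The gene higher in WT was Fcer2a, also a B cell marker, at 0.71 (limma adjusted p = 0.000153). In EBi3KO Fcer2a stood at 0.22 (adjusted p = 0.105), and the gene higher there was Nfil3, at 0.58. The chemokine Ccl22 fell by 0.80 in EBi3KO and fell by 3.51 in WT. The co-stimulatory ligand Cd86 stood at -0.66 in EBi3KO and -1.61 in WT, past the threshold in both, and the class II gene H2-Ab1 fell by 1.07 in WT. Ccl22 and Cd86 are also genes of myeloid cells, whose markers fell in the same libraries. The WT counts became 3 higher and 2 lower with the correction for length and GC. Of 11 genes known to respond to IL-21 through STAT3, 4 were higher and 1 lower in EBi3KO and 3 higher and 5 lower in WT, where the counts became 5 and 4 with the correction for length and GC. Bcl6, the germinal center repressor, rose by 0.72 in WT, while Maf, a transcription factor, fell by 0.62 in EBi3KO and fell by 2.1 in WT.

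For the type I interferon response, 2 of 25 genes were higher and 8 lower in EBi3KO tumor, and 11 were higher and 7 lower in WT tumor, at medians of -0.16 and 0.21, with 32.6% and 79.8% of all tested genes called in these comparisons. Isg20, an exonuclease induced by interferon, fell by 1.31 in EBi3KO and fell by 1.72 in WT, whereas Ddx58, the sensor RIG-I, rose by 1.19 in WT. Between the genotypes in tumor mice 2 of the 25 were higher and 16 lower in EBi3KO, at a median of -0.53, where 31.9% of all tested genes were higher and 28.6% lower. These counts were 2 and 19 with the correction for length and GC, where 3213 of 12878 tested genes were higher and 2388 lower. For the interferon gamma response, 6 of 21 were higher and 0 lower in EBi3KO, and 9 were higher and 9 lower in WT, with the same background. Ciita, the master regulator of class II genes, rose by 0.50 in EBi3KO and 1.52 in WT, and Psmb9, a subunit of the immunoproteasome, fell by 1.28 in WT. In the genotype effect in nontumor mice 0 genes of any of these lists passed. Limma called 0% of all tested genes there, so no list could hold a call and the count says nothing about the lists.

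Of 8 genes of receptor shedding and turnover, 1 was higher and 1 lower in EBi3KO, and 5 were higher and 1 lower in WT, against 32.6% and 79.8% of all tested genes called. The WT counts were 4 higher and 3 lower after the correction for length and GC. Adam17, the protease that sheds the IL-6 receptor, rose by 0.68 in WT, and Rhbdf2, which escorts it to the cell surface, by 0.32 in EBi3KO and 0.61 in WT. Of 17 listed ligand genes 5 passed the filter on low values. Il12a, the p35 chain that pairs with Ebi3 in IL-35, had 415 and 388 reads in EBi3KO tumor, 359 and 252 in EBi3KO nontumor, 579 and 651 in WT tumor, and 360 and 184 in WT nontumor, and Il15 had 52 to 137. Reads of ligands are not scaled between libraries. In normalized counts Il12a rose by 0.60 in WT (limma adjusted p = 0.0340) and missed the threshold in EBi3KO. Ifnb1, Ifna4 and Il9 had 0 reads in every library, Il4 had 0 to 10, Il6 1 to 10 and Il21 1 to 25. Il10 had 46 and 62 reads in EBi3KO tumor, 16 and 15 in EBi3KO nontumor, 11 and 11 in WT tumor, and 27 and 15 in WT nontumor. It rose by 1.23 in EBi3KO (adjusted p = 0.0253) and fell by 1.42 in WT (adjusted p = 0.00346). Ifng had 49 and 39 reads in EBi3KO tumor, against 11 and 9 in EBi3KO nontumor, and rose by 1.55 there (adjusted p = 0.0215). Of the 8 T cell markers 2 were higher and 1 lower in that contrast, at a median of 0.75, and they summed to 0.00333 to 0.00337% in EBi3KO tumor and 0.00246 to 0.00280% in EBi3KO nontumor. Of the 6 NK cell markers 0 passed in that contrast, at a median of 0.21. Of the 6 plasma cell markers 5 were higher and 1 lower in EBi3KO, and 1 was higher and 4 lower in WT. Over all tested genes 14.1% were higher and 18.5% lower in EBi3KO, and 39.6% and 40.1% in WT. Most of these markers moved in the directions of Il10, while Sdc1 rose in both genotypes, by 0.54 in EBi3KO and 0.68 in WT. The part of these cells in the values of Ifng and Il10 was not tested.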

How the data were processed

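RNA of splenic B cells was sequenced from 8 libraries in 4 groups of 2. Per the submitters' processing notes, the authors used Salmon, DESeq2 and mm10, whose versions those notes do not state. The authors deposited normalized counts per gene symbol (unit signal). Dividing each library's values by their step gave whole reads for 100% of values within a tolerance of 0.01. Genes with a mean of at least 10 were tested (13011 of 23302 entries, of which 5065 were at 0 throughout and 27 have date names), as log2 of the normalized count plus a pseudocount of 1. One linear model with 4 group means was fitted (limma 3.58.1, R 4.3.3) and moderated with a trend of variance on mean (degrees of freedom: 4 residual, 4.64 prior), with Benjamini-Hochberg adjustment over all tested genes within each of 5 comparisons, two-sided, at 0.05. Fold changes on this scale understate changes of low genes, and list counts and medians use the same fit.

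Alternatives were a pseudocount of 5, a minimum mean of 50 or none, quantile scaling, scaling to the library total, moderation without the mean trend, count models of the recovered reads in edgeR 4.0.16 and DESeq2 1.42.0, a loess correction of each library for length and GC content (longest coding transcript of GENCODE mouse release 21, available for 98.98% of tested genes), the EBi3KO tumor libraries averaged, a replicate block on title numbers, and leaving out each library in turn. The fits were tested on simulated data. Members, lists and the marker lists were chosen with earlier results of these data known. All 10 members are named. Of each list, up to 4 genes with the smallest p per comparison were eligible to be named, and genes outside this rule are said to be so or were named for a partner role after their values were seen. For likeness, the gene with the highest correlation was named, passing over predicted gene models and pseudogenes. That of Il21r is not reported here. Promoter sequences are from RefSeq (GRCm38.p6).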

Additional observations from a re-analysis of the deposited data

Results flagged for a closer look

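For 5 receptor chains the tumor effect in EBi3KO differed from that in WT in a test of the difference itself, the interaction term of limma. The effect was lower in EBi3KO for all 5, with a log2 difference between the effects of -0.9147 for Ifnar1, -0.8273 for Il10ra, -0.8238 for Il21r, -0.6802 for Il6ra and -0.5431 for Il4ra. Among all tested genes 52.9% passed in this comparison. Sex and title prefix of the WT tumor libraries cannot be told apart from these differences. Ifnar1, Il10ra and Il21r were past the threshold in all 19 alternatives run, Il4ra in 18 of 19 and Il6ra in 8 of 19.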

How the results depend on the processing

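In the tumor effect in WT the number of chains called did not change when a library was left out. Most of all tested genes were called in those fits as well. With libraries left out in turn, the chains called ranged from 0 to 6 in the tumor effect in EBi3KO, 2 to 7 in the genotype effect in tumor mice and 4 to 7 in the interaction. With the EBi3KO tumor libraries averaged the counts were 0 for the tumor effect in EBi3KO and 2 for genotype in tumor mice, which was 4 without the mean trend. DESeq2 called 2 chains in the genotype effect in nontumor mice, where it called 21 of 10993 genes. Quantile scaling gave 8 chains in the interaction, where 6836 of 13011 genes were called. With RPM 1 chain had both WT tumor libraries below the other 6. Over the whole table the tumor effect in EBi3KO held 4242 calls, 2375 without the mean trend, 733 with the averaged libraries and 756 to 5313 with a library left out.

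The correction for length and GC turned the sign, among values past the threshold in at least 1 of the fits, of the WT tumor effect for Il2rg (0.51), Il10rb (0.13) and Il6ra (-0.37), of the genotype effect in tumor mice for Il4ra (0.19), Il2rg (-0.34), Il10rb (-0.052) and Il6ra (0.30), and of the interaction for Il2rg (-0.39) and Il6ra (0.29). Among values past it in neither, the sign turned for Il10rb in the interaction (-0.086), for Il10rb (0.046) and Il6ra (-0.075) when tumor and nontumor EBi3KO libraries are compared, and for Il10rb (0.034) and Il2rg (0.053) between the nontumor groups. The cause was not tested.

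Title numbers are shared by the WT groups alone, in 2 pairs, whose deviations had a correlation of -0.26, so the numbers are not shown to pair libraries. With the title number as a replicate block over all 8 libraries the chains called were 9 and 4 for the tumor effect in WT and EBi3KO, 0 and 6 for genotype in nontumor and tumor mice, and 4 for the interaction. Of all 13011 tested genes, 10158, 3104, 0, 7430 and 6334 were called in the same order. Within the WT libraries alone it was 8 chains, without Il10rb, and 9305 of all tested genes. A block on crossed numbers, added after seeing the data, gave 9, 6, 0, 7 and 5 chains. The calls over all tested genes were then 10519, 5429, 0, 8205 and 7372. A group of 2 limits how small a difference can pass, most of all for Il6ra.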

Other observations

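Among receptor chains outside the set, and named after their values were seen, Il5ra, the receptor chain of a cytokine that acts on B-1 cells and eosinophils, had 752 and 711 normalized counts in EBi3KO tumor, 542 and 455 in EBi3KO nontumor, 1405 and 1643 in WT tumor, and 454 and 317 in WT nontumor. It rose by 0.56 in EBi3KO (limma adjusted p = 0.0363) and 2.0 in WT (adjusted p = 8.76e-06). Il2ra, the alpha chain of the IL-2 receptor, had 133 and 132 normalized counts in EBi3KO tumor, 101 and 54.8 in EBi3KO nontumor, 301 and 322 in WT tumor, and 60.4 and 52.1 in WT nontumor. Il2rb, the beta chain of the same receptor, rose by 0.56 in EBi3KO (adjusted p = 0.0382) and fell by 0.78 in WT (adjusted p = 0.00253), with an interaction of 1.34 (adjusted p = 0.00229). Il9r, which pairs with Il2rg, fell by 0.68 in EBi3KO (adjusted p = 0.00889) and fell by 0.55 in WT (adjusted p = 0.0043). All values for these chains outside the set are without the correction for length and GC.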
